A study of Mus musculus with 43 samples.

Results

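The 41 genes described here are cell cycle and DNA replication genes, named in a fixed list and looked up by symbol in the organoid table and in the fibroblast table. All 41 were found in both tables, out of 52636 genes in each. They were taken as 18 replication genes, most of which act from the end of G1 through S phase (Mcm2 to Mcm7, Pcna, Ccne1, Ccne2, Cdc45, Cdc6, Gins2, Pold1, E2f1, E2f2, Cdt1, Chek1 and Brca1). The other 23 were taken as mitosis genes, most of which act mainly in G2 and M phase (Mki67, Top2a, Ccna2, Ccnb1, Ccnb2, Cdk1, Cdc20, Bub1, Bub1b, Aurka, Aurkb, Plk1, Kif11, Kif20a, Kif23, Birc5, Foxm1, Ube2c, Tpx2, Cenpe, Cenpf, Nusap1 and Prc1).

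The study asked how mouse colon epithelium and colon fibroblasts respond to regorafenib, a multi-kinase inhibitor used in colorectal cancer, by bulk RNA sequencing. Epithelial organoids came from adult mice given tamoxifen, which turns on a Cre recombinase that the villin promoter drives in intestinal epithelium. The 3 colonoid lines (M41, M40 and M1) were Vil-cre/ERT2/Apcwt/wt and the 3 tumoroid lines (F11, M3 and M14) Vil-cre/ERT2/Apcflox/flox, whose floxed Apc the Cre deletes, each line from 1 mouse. Each of these 6 lines was treated from replating for 6 days with DMSO vehicle (Ve), 4 µM regorafenib (R4), 8 µM regorafenib (R8) or 1 µM 5-fluorouracil (5-FU), which gave 24 libraries in 8 groups of 3. Primary wild-type fibroblasts from C57B/6 colon (lines M3, M3(2), M1(2) and M11) were treated for 7 days with Ve, R4, 10 µM regorafenib (R10), 1 µM autogramin-2 (A1), an autophagy inhibitor that targets Gramd1a, or 4 µM regorafenib with 1 µM autogramin-2 (R4A1), which gave 19 libraries because R10 was not measured in line M11. All treated groups of a culture type share its Ve libraries, so their differences from Ve are not independent of each other.

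Values are CP20M, read counts per gene scaled to a library total of 20000000 and not divided by gene length, so levels of different genes are compared below only per kilobase of exon. Library depth ran from 512597 to 22373023 reads in organoids and from 7949965 to 12825919 in fibroblasts. The colonoid M41 R4 library was the shallowest, the next one having 4371832 reads. In that library 1 read was worth 39.0 CP20M and a gene listed at 0 may have had up to 117 CP20M, a limit that covers counting error only. Organoids carried their epithelial markers (8 genes, summed level 106355 to 349790 CP20M) with fibroblast markers at 12 to 123 CP20M, and fibroblasts carried theirs (8 genes, 110998 to 186156 CP20M). Apc transcripts ran from 1542 to 4944 CP20M in the 12 colonoid libraries and from 3813 to 6032 CP20M in the 12 tumoroid libraries, a count over the whole gene that does not check the deletion. In these bulk libraries fewer dividing cells and less RNA per dividing cell cannot be told apart.

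A cell licenses its replication origins in G1, when Cdc6 and Cdt1 load the Mcm2 to Mcm7 helicase. E2F transcription factors then turn on the genes for S phase, among them cyclin E, Pcna and the helicase itself. In G2 another group of genes, whose promoters often hold CHR and CCAAT elements and are bound by complexes with B-Myb and Foxm1, supplies cyclin B, Cdk1 and the kinases, motors and checkpoint proteins of mitosis. In colon these genes are used in the dividing cells of the lower crypt and are off in differentiated surface cells.

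The promoters of the 2 groups differed in their letters, and 6 stretches of 180 bases are shown because these genes had the largest differences of their group under R10 in fibroblasts. They were read from RefSeq on GRCm38.p6, 5′ to 3′ on the gene's own strand, from 150 bases before the start site to 30 bases after it. The 3 replication genes come first, all subunits of the Mcm helicase, with E2F letters (TTTCCCGC, TTTGGCGC, TTTCGCGC or TTTGCCGC on either strand) and CCAAT (either strand) in capitals.
Mcm5, chr8:75109359-75109538 (+ strand): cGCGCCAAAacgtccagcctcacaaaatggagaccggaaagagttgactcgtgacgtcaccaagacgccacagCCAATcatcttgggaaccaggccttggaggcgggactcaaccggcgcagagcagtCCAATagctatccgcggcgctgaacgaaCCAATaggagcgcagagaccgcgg
Mcm6, chr1:128359676-128359855 (- strand): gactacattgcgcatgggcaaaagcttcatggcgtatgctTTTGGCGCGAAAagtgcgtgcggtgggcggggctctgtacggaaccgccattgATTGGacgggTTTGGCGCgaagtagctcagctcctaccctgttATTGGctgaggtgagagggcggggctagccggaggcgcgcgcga
Mcm3, chr1:20820283-20820462 (- strand): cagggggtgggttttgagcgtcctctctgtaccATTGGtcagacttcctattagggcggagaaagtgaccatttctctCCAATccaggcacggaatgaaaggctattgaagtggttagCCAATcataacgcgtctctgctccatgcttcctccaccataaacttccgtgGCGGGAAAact

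In the Mcm6 stretch 2 of the 3 E2F matches overlap, at -110 and -106 from the start site. The next 3 belong to the proliferation antigen Mki67, the kinetochore protein gene Cenpf and cyclin B1 (Ccnb1), with CHR letters (TTTGAA or TTTAAA on either strand) and CCAAT in capitals.
Mki67, chr7:135716350-135716529 (- strand): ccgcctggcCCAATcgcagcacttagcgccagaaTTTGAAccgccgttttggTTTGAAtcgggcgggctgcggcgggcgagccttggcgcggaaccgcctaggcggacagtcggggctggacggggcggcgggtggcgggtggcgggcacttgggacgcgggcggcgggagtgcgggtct
Cenpf, chr1:189688057-189688236 (- strand): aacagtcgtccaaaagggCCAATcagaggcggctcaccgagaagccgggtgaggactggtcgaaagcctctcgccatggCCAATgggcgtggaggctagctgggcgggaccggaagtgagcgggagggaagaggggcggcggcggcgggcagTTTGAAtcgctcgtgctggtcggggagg
Ccnb1, chr13:100786457-100786636 (- strand): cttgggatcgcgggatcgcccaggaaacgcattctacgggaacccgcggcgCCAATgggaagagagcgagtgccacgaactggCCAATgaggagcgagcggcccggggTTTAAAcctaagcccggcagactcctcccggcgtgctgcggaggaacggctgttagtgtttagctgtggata

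E2f1 is shown because its level did not follow the other replication genes, and none of these letters were found in the printed stretch. In the annotation used for exon lengths E2f1 starts at chr2:154569892, so the stretch lies inside the gene. Bases before that start were not read. The windows of Mcm2, Pcna, Ccne1 and Brca1, which fell under R10 in fibroblasts, held no E2F letters either.
E2f1, chr2:154569397-154569576 (- strand): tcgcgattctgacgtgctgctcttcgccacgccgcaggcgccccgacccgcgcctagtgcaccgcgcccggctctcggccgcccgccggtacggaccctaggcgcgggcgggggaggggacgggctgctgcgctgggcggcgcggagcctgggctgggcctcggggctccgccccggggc

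Windows of 300 bases were found for 15 of the 18 replication genes and 18 of the 23 mitosis genes, but not for Mcm4, Ccne2, Gins2, Ccna2, Aurkb, Kif20a, Foxm1 and Tpx2. E2F letters were in 8 of 17 replication windows (47.1%), in 1 of 19 mitosis windows (5.26%) and in 2.26% of all 32851 promoter windows. CHR letters were in 17 of 19 mitosis windows (89.5%), in 29.4% of the replication windows and in 27.6% of all windows. CHR and CCAAT letters stood together in 84.2% of mitosis windows, 23.5% of replication windows and 10.7% of all windows. These are matches of letters, not binding sites.

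In untreated organoids the cell cycle genes differed more between lines than between genotypes. The summed level of the 23 mitosis genes in Ve was 66328 CP20M in tumoroid line F11, 2895 in M3 and 4480 in M14, a 22.9-fold range within 1 genotype. In Ve colonoids it was 30250 CP20M in line M40, 5053 in M41 and 6156 in M1. F11 and M40 thus stood above the other lines of their genotype. The 18 replication genes followed the same order of high lines with a smaller range, with sums of 37746, 9169 and 7891 CP20M in tumoroids F11, M3 and M14 and of 15642, 6508 and 9615 CP20M in colonoids M40, M41 and M1.

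Per kilobase, Pcna, the sliding clamp of the replicative polymerases, was the most abundant of the 41 genes in both genotypes, at 810 ± 722 CP20M per kb (SD, n = 3) in Ve tumoroids and at a mean of 798 in Ve colonoids, where its 3 libraries held 1600 to 2470 CP20M. Brca1, a homologous recombination protein, was the lowest in Ve colonoids at 13.9 ± 12.8 CP20M per kb, and E2f2, an activating E2F factor, was the lowest in Ve tumoroids at 31.7 ± 40.3.

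**Figure D1:**
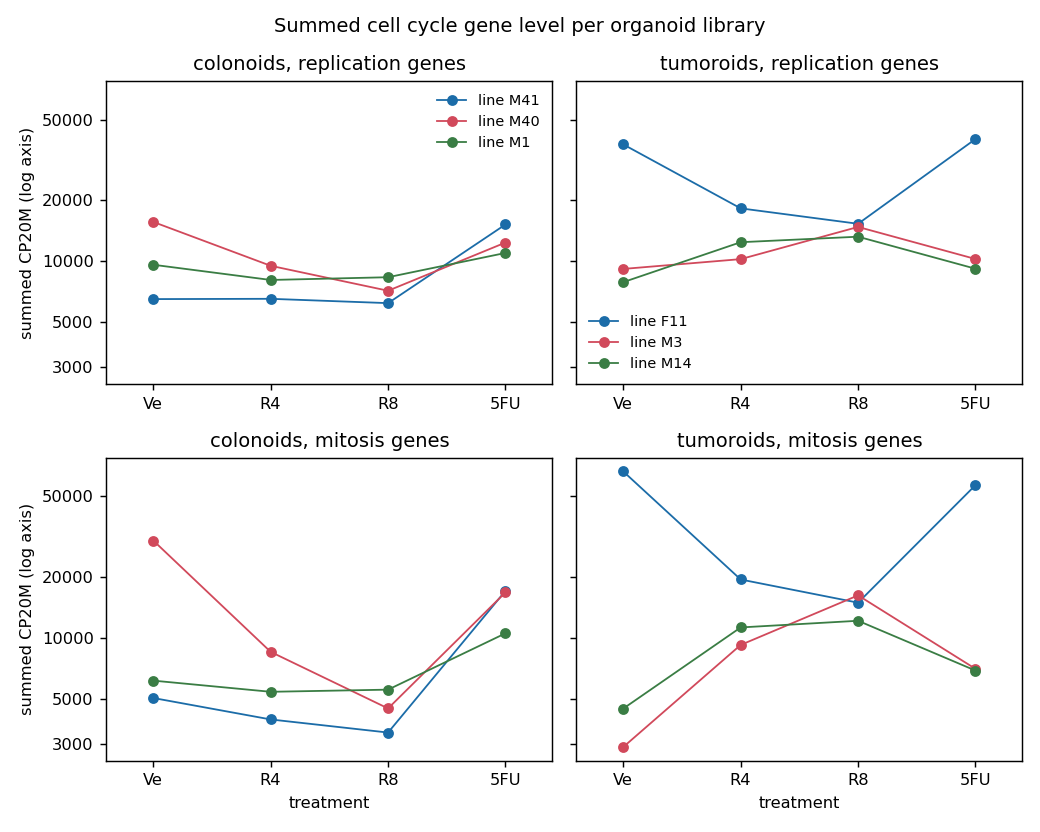
Summed CP20M (log axis) of the 18 replication genes (top) and the 23 mitosis genes (bottom) in each organoid library, by treatment; each line of points is 1 organoid line, colonoids at left and tumoroids at right. The tumoroid mitosis sums lie between 2895 and 66328 CP20M in Ve and between 12154 and 16223 CP20M in R8.

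Tumoroids were compared with colonoids in Ve to ask what loss of Apc did to these genes. None of the 41 was called, where called means an adjusted p under 0.05 and at least a 1.5-fold difference in limma, while 2.06% of all 11562 genes tested were called in either direction. The median log2 difference was 0.46 over the replication genes and -0.09 over the mitosis genes, beside 0.06 over all genes. By edgeR on the recovered reads the median of the 41 genes was 0.75 (0.03 over all genes), against 0.02 in limma, and none was called. Mcm2, a helicase subunit, had the lowest adjusted p (log2 difference 0.98, SE 0.46, adjusted p = 0.286) with 3491, 1408 and 967 CP20M in tumoroids F11, M3 and M14 and 519, 1341 and 854 CP20M in colonoids M41, M40 and M1. Its groups overlapped. The log2 differences were 0.30 (SE 0.84) for Mcm5, 0.58 (0.57) for Mcm6, -0.30 (0.52) for Pcna, 0.07 (0.44) for Ccne1, -0.22 (0.53) for Ccne2, 0.33 (0.78) for Cdc6 and 0.03 (0.57) for E2f1, with adjusted p from 0.675 to 0.987. Among mitosis genes they were -0.17 (SE 1.11) for Mki67, 0.40 (0.93) for Top2a, 0.03 (0.83) for Cdk1, -0.09 (0.98) for Ccnb1, -0.64 (1.03) for Plk1, 0.02 (0.78) for Aurka, 0.18 (0.82) for Foxm1 and -0.28 (0.92) for Birc5, with adjusted p above those of Mcm2 and Mcm6 and up to 0.993.

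Under regorafenib these genes went in opposite directions in different organoid lines. In tumoroid F11, the line with the highest level in Ve, all 23 mitosis genes were lower than in its own Ve at both doses, with a median log2 difference of -1.65 in R4 and -1.85 in R8. In tumoroids M3 and M14 all 23 were higher at both doses, by a median of 1.67 and 2.32 in M3 and of 1.36 and 1.51 in M14. The R8 sums of the 3 tumoroid lines, 14926, 16223 and 12154 CP20M, were within 1.33-fold of each other. In colonoid M40, the high line of its genotype, all 23 were lower, by a median of -1.71 in R4 and -2.64 in R8. Colonoids M41 and M1 stayed nearer to their Ve, with medians of -0.37 and -0.59 in M41 and of -0.11 and 0.08 in M1. In the shallow M41 R4 library the median over all genes at 200 CP20M or more in Ve was itself -0.58, below that of its mitosis genes. These are single libraries per line and dose and were not tested within a line. The Ve library that ranks a line also enters its differences, so rank and difference are not independent.

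The marker of dividing cells Mki67 shows the pattern. In tumoroid Ve, R4 and R8 it was at 11896, 2896 and 1473 CP20M in F11, at 242, 1177 and 2533 CP20M in M3 and at 567, 1680 and 1410 CP20M in M14. In colonoids it was at 4532, 965 and 543 CP20M in M40, at 592, 274 and 287 CP20M in M41 and at 926, 725 and 485 CP20M in M1. All 3 colonoid lines were below their own Ve at both doses, and the tumoroid lines went both ways. Mcm5, a helicase subunit, was at 3800, 1068 and 864 CP20M in F11, at 254, 329 and 776 CP20M in M3 and at 352, 555 and 602 CP20M in M14. In colonoids Mcm5 was at 1230, 340 and 172 CP20M in M40, at 246, 196 and 103 CP20M in M41 and at 604, 241 and 252 CP20M in M1, again below Ve in all 3.

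**Figure D2:**
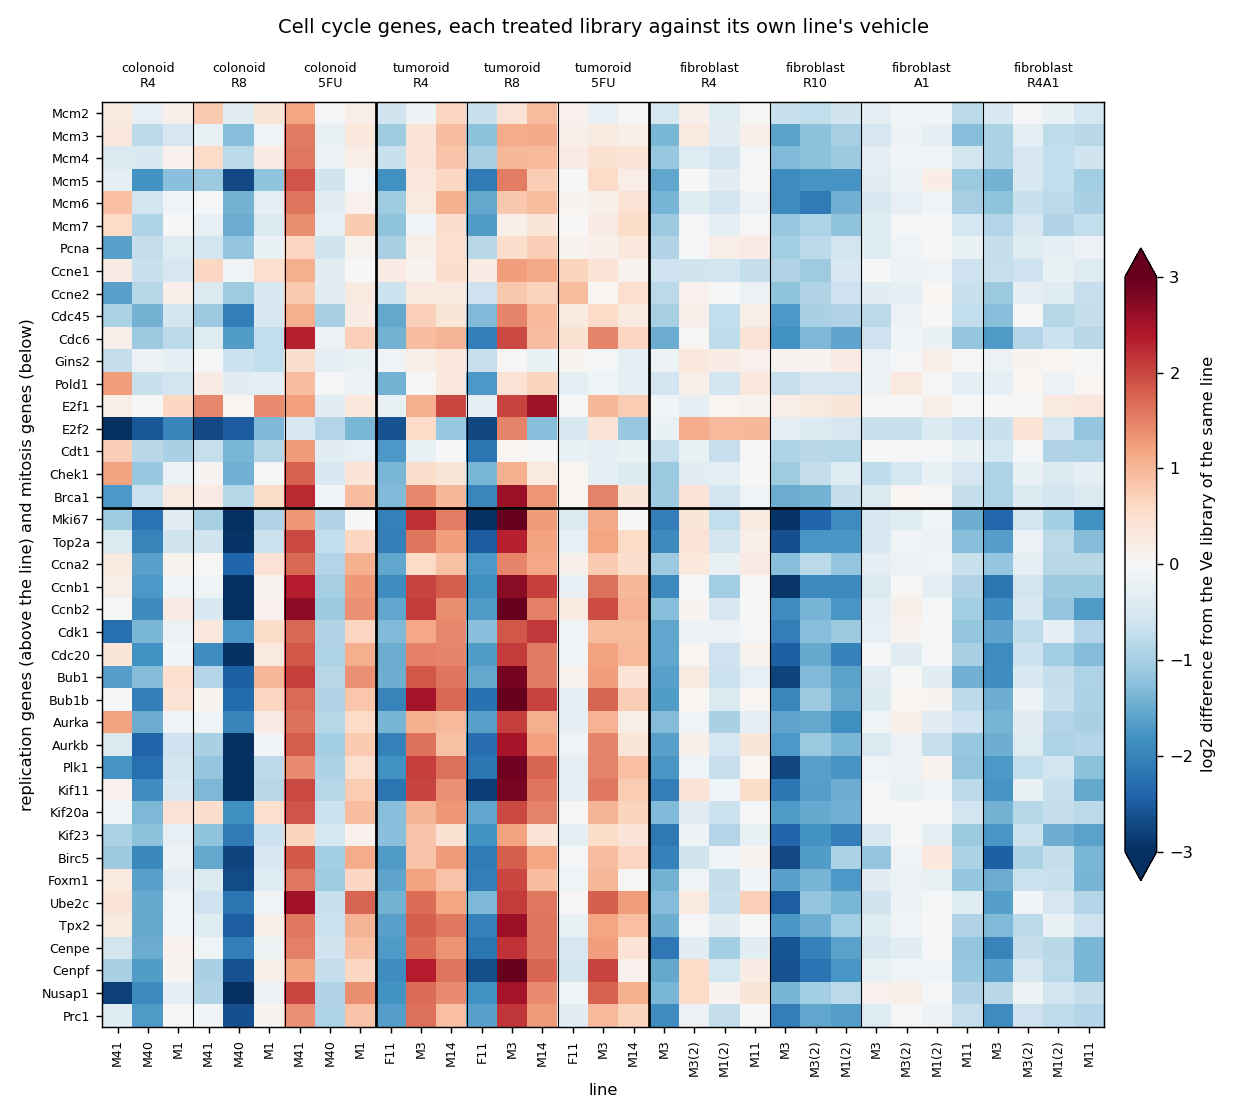
Log2 difference of each of the 41 genes (rows) between a treated library and the Ve library of the same line (columns, grouped by culture type and treatment), on the log2(CP20M + 20) scale, with blue for lower and red for higher and colours ending at 3 either way. F11 is blue and M3 and M14 are red for the mitosis genes under regorafenib, and all fibroblast R10 columns are blue for these genes.

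Over both genotypes and doses, regorafenib lowered 1 of the 41 genes, E2f2, against 9.20% of all genes tested that were called lower. E2f2 passed the filter on low values only through libraries where it was high (M40 Ve, F11 Ve and F11 5-FU), and no regorafenib library held more than 67 CP20M. E2f2 in Ve, R4 and R8 was at 244, 25 and 27 CP20M in colonoid M40, at 126, 17 and 37 CP20M in M1 and at 164, 0 and 8 CP20M in M41. In tumoroids it was at 379, 45 and 40 CP20M in F11, at 75, 23 and 19 CP20M in M14 and at 11, 26 and 67 CP20M in M3. It was below Ve at both doses in 5 of the 6 lines and above it in M3, whose Ve level was the lowest of the 6. The fall was 3.18-fold (log2 difference -1.67, SE 0.48, adjusted p = 0.0130), and -1.58 (SE 0.49, adjusted p = 0.0139) without the shallow M41 R4 library. In fits that left out a line the call was lost without colonoid M41, colonoid M40 or tumoroid M14, with log2 differences of -1.52, -1.63 and -1.60 and adjusted p of 0.0513, 0.0539 and 0.0628, and E2f2 did not pass the filter on low values without F11.

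E2f1, the founding member of the same family and an activator of S phase genes, had the opposite direction. From Ve to R8 it went from 74 to 529 CP20M in tumoroid M14, from 111 to 516 in M3, from 160 to 463 in colonoid M1, from 134 to 399 in M41 and from 271 to 285 in M40. In F11 it went from 683 to 551 CP20M. E2f1 was therefore higher in R8 than in Ve in 5 of the 6 lines. The log2 difference over both doses was 0.91 (SE 0.35, adjusted p = 0.0583). It was called higher with the line as a block (adjusted p = 0.0148; 2 of the 41 called, beside 19.3% of all genes), with TMM factors (0.97, adjusted p = 0.0355) and without the M41 R4 library (0.96, SE 0.36, adjusted p = 0.0383).

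**Figure D3:**
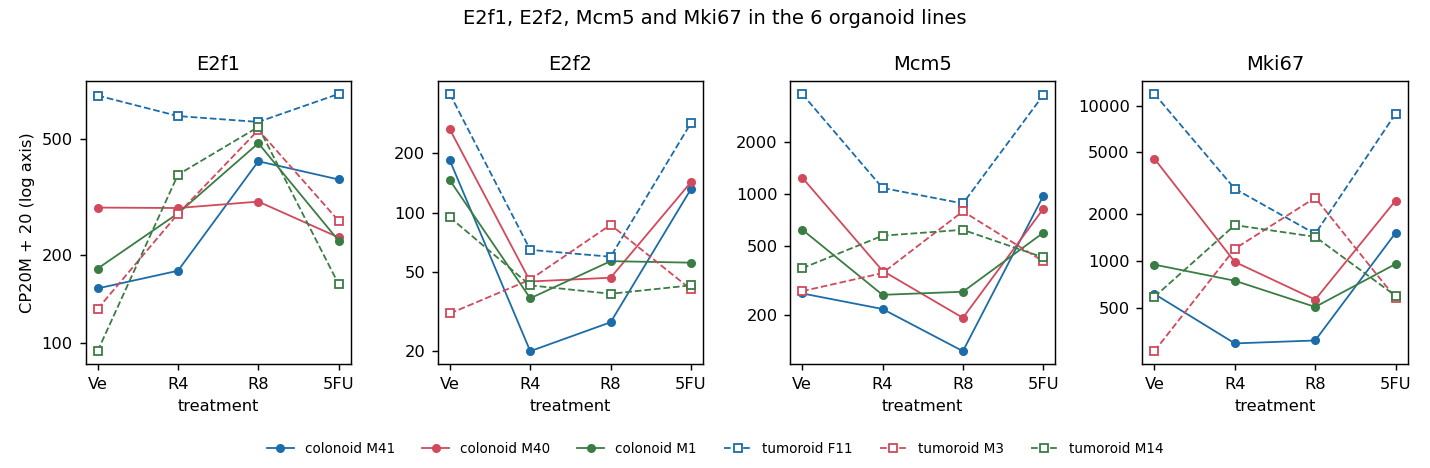
CP20M + 20 (log axis) of E2f1, E2f2, Mcm5 and Mki67 in the 6 organoid lines by treatment; filled circles with solid lines are colonoids and open squares with dashed lines are tumoroids, 1 library per point. E2f1 is higher in R8 than in Ve in 5 lines and E2f2 is lower in R4 and R8 than in Ve in 5 lines.

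The other genes followed in full were not called over both genotypes. The log2 differences were 0.13 (SE 0.28) for Mcm2, -0.75 (0.52) for Mcm5, -0.08 (0.35) for Mcm6, -0.38 (0.32) for Pcna, 0.30 (0.27) for Ccne1, -0.30 (0.32) for Ccne2 and -0.26 (0.48) for Cdc6, with adjusted p from 0.288 to 0.884. For mitosis genes they were -0.44 (SE 0.68) for Mki67, -0.44 (0.57) for Top2a, -0.06 (0.51) for Cdk1, 0.01 (0.60) for Ccnb1, -0.47 (0.63) for Plk1, -0.00 (0.48) for Aurka, -0.32 (0.50) for Foxm1 and -0.55 (0.57) for Birc5, with adjusted p from 0.494 to 0.997. The medians were -0.21 over the replication genes and -0.17 over the mitosis genes, beside -0.11 over all genes. By edgeR on the recovered reads the median of the 41 genes was -0.84 (-0.04 over all genes), against -0.17 in limma, and Cdt1, a helicase loading factor, and E2f2 were called lower.

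Within colonoids E2f2 was the 1 gene of the 41 called (5.22-fold lower, log2 difference -2.38, SE 0.67, adjusted p = 0.0194), beside 8.90% of all genes called lower. Without M41, M40 or M1 in turn its adjusted p was 0.131, 0.116 and 0.0578. The mitosis genes had a median log2 difference of -0.85 and the replication genes of -0.42, beside -0.15 over all genes. Mitosis medians in R4 and R8 were -1.71 and -2.64 in M40, -0.37 and -0.59 in M41 and -0.11 and 0.08 in M1. M40 was thus the farthest from its Ve. With the line as a block 3 members were called, all lower (E2f2, Mcm5 with -1.39 at adjusted p = 0.0470 and Kif23, a motor of cytokinesis, with -1.07 at adjusted p = 0.0399), beside 19.9% of all genes in either direction. Without tumoroid F11, which also sets the spread shared by all groups, 4 were called lower (Cdc45, Mcm5, Plk1 and Kif23). The share of all genes called without F11 is not given here, so this count is not a result about the members. TMM factors moved the median of all genes by 0.11 and that of the 41 genes from -0.75 to -0.66.

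Within tumoroids none of the 41 was called, beside 7.78% of all genes in either direction. The medians were 0.09 for replication and 0.54 for mitosis genes, beside -0.05 over all genes. By edgeR on the recovered reads none was called either, and the median of the 41 genes was -0.62, of the other sign than the limma median of 0.32. Without line F11 the limma median was 1.47 and 3 members were called, all higher (E2f1, Bub1b and Tpx2). Here too the share of all genes called without F11 is not given, so this count is not a result about the members. With the line as a block E2f1 was called (log2 difference 1.19, adjusted p = 0.0426; beside 12.3% of all genes).

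The difference between the 2 genotypes in this response was not called for any member or for any of the 11562 genes (0%). Its median was 0.57 over replication genes and 1.51 over mitosis genes, tumoroid response minus colonoid response, beside 0.10 over all genes, and of the genes followed in full Plk1, a mitotic kinase, had the largest difference (2.40, SE 1.26, adjusted p = 0.997). No member was called between the 2 doses either, while 0.848% of all genes were called, and the lowest adjusted p was that of Ccne1, cyclin E1 (0.63 higher in R8, SE 0.31, adjusted p = 0.302).

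In 5-FU, which blocks thymidylate synthesis and so disturbs S phase, no member was called in either genotype, beside 0.0432% of all genes in colonoids and 0.182% in tumoroids. In colonoids the mitosis genes had a median log2 difference of 0.62 and the replication genes of 0.40, beside 0.01 over all genes. The lines again differed. The mitosis sum went from 5053 to 17079 CP20M in M41 and from 6156 to 10540 in M1, and from 30250 to 16789 in M40. In tumoroids it went from 2895 to 7038 CP20M in M3 and from 4480 to 6901 in M14, and from 66328 to 56789 in F11. In each genotype the line with the highest Ve level was the one below its Ve.

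In 5-FU colonoids the replication genes had log2 differences of 0.44 (SE 0.46) for Mcm2, 0.41 (0.84) for Mcm5, 0.47 (0.57) for Mcm6, 0.05 (0.52) for Pcna, 0.26 (0.44) for Ccne1, 0.24 (0.53) for Ccne2, 0.95 (0.78) for Cdc6 and 0.40 (0.57) for E2f1, all at adjusted p = 1.000. Cdc6, the helicase loader, had the largest of these 8 differences, with 251, 153 and 150 CP20M in M41, M40 and M1 in 5-FU and 34, 176 and 84 in Ve. The mitosis genes had 0.14 (SE 1.11) for Mki67, 0.62 (0.93) for Top2a, 0.49 (0.83) for Cdk1, 0.88 (0.98) for Ccnb1, 0.31 (1.03) for Plk1, 0.45 (0.78) for Aurka, 0.38 (0.82) for Foxm1 and 0.64 (0.92) for Birc5, at adjusted p = 1.000 also. In 5-FU tumoroids the replication genes had -0.05 (SE 0.46) for Mcm2, 0.25 (0.84) for Mcm5, 0.22 (0.57) for Mcm6, 0.20 (0.52) for Pcna, 0.39 (0.44) for Ccne1, 0.50 (0.53) for Ccne2, 0.86 (0.78) for Cdc6 and 0.59 (0.57) for E2f1, with adjusted p from 0.849 to 0.997. The mitosis genes had 0.25 (SE 1.11) for Mki67, 0.52 (0.93) for Top2a, 0.59 (0.83) for Cdk1, 0.80 (0.98) for Ccnb1, 0.69 (1.03) for Plk1, 0.31 (0.78) for Aurka, 0.30 (0.82) for Foxm1 and 0.50 (0.92) for Birc5, with adjusted p from 0.925 to 0.991. No gene differed between genotypes in its response (0% of all genes).

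Neighbouring cell cycle genes, in lists with no gene of the 41, included called genes in organoids under regorafenib, beside 885 genes called higher and 1064 called lower of all 11562 tested. Of 10 CDK inhibitors and pocket proteins, 9 were tested, 2 rose and 1 fell over both genotypes, with Cdkn2a, the p16 and p19Arf locus, 3.19-fold higher (log2 difference 1.67, SE 0.17, adjusted p = 1.96e-06) and Cdkn1b, the p27 inhibitor, 1.93-fold lower (-0.95, SE 0.16, adjusted p = 2.81e-04). Cdkn2a rose by 1.89 (SE 0.24, adjusted p = 5.96e-05) in colonoids and by 1.45 (SE 0.24, adjusted p = 0.00117) in tumoroids, where Cdkn2b, the p15 inhibitor, rose by 1.09 (SE 0.32, adjusted p = 0.0360). Of 10 G1 cyclins, kinases and their regulators, 2 rose and 1 fell, with Ccnd2, cyclin D2, 1.58-fold higher (0.66, SE 0.17, adjusted p = 0.00612) and Myc 1.85-fold lower (-0.89, SE 0.16, adjusted p = 5.20e-04). Of 26 tested other replication genes, only Tyms, thymidylate synthase, was called and fell 2.15-fold (-1.10, SE 0.29, adjusted p = 0.00723). Of 30 other mitosis genes 2 fell, both condensin subunits, Ncapd2 by 2.31-fold (-1.21, SE 0.32, adjusted p = 0.00775) and Smc4 by 2.06-fold (-1.04, SE 0.34, adjusted p = 0.0255). In the other replication and other mitosis lists the share called lower was under the 9.20% of all genes. In 5-FU and between genotypes in Ve no gene of these 4 lists was called. The summed level of 7 immune markers was also higher under R8. It was 601 to 3249 CP20M in R8 and 423 to 515 in Ve colonoids, and 854 to 1736 in R8 and 510 to 573 in Ve tumoroids. Over all organoid libraries Cd68 ran from 32 to 2659 CP20M and Csf1r from 352 to 625. Adgre1, Cd79a, Ptprc, Lyz2 and Cd3e were at most at 40, 9, 7, 4 and 2 CP20M in any organoid library. The part of these markers in the results was not tested.

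In fibroblasts R10 lowered 31 of the 34 members that passed the filter on low values, 11 of 14 replication genes and all 20 mitosis genes tested, beside 4.09% of all 11032 genes called lower. The median log2 difference was -0.90 over the replication genes and -1.71 over the mitosis genes, beside -0.04 over all genes. Gins2, Pold1 and E2f1 were not called, and Cdc45, Cdc6, E2f2, Chek1, Birc5, Ube2c and Nusap1 did not pass the filter. The count was 14 without line M1(2), Mki67, Top2a, Mcm5, Cdk1 and Foxm1 being among those lost, at adjusted p from 0.0513 to 0.0835 and with log2 differences from -2.51 to -1.43. For the fit without M1(2) the share of all genes called is not given. Without the filter 34 of all 41 were called, all lower (12 of 18 and 22 of 23), beside 1.83% of genes. Every R10 library was below every Ve library for 38 of the 41 genes. Gins2 and E2f2 overlapped, and E2f1 was higher in every R10 library than in every Ve library. Of the members tested, every R10 library was below every Ve library for 32 of 34, beside 1782 of the 11032 genes tested.

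The summed level of the mitosis genes was 2755, 3203 and 2943 CP20M in R10 (lines M3, M3(2) and M1(2)) and 14360, 10696, 9622 and 9598 CP20M in Ve (the same lines and M11). The replication sum was 5343, 5465 and 5873 CP20M in R10 and 10059, 9294, 8792 and 8430 CP20M in Ve. Neither sum overlapped between R10 and Ve. Against its own Ve, the mitosis genes of each line had a median log2 difference of -2.18 in M3, -1.52 in M3(2) and -1.61 in M1(2), with 23 of 23 lower in each.

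**Figure D4:**
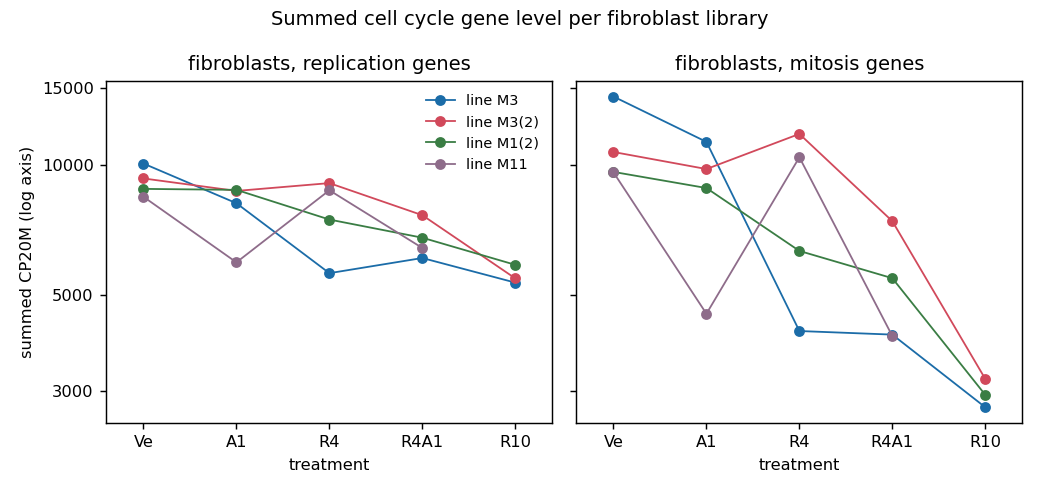
Summed CP20M (log axis) of the 18 replication genes (left) and 23 mitosis genes (right) in each fibroblast library by treatment; each line of points is 1 fibroblast line and R10 was not measured in M11. The R10 mitosis sums lie between 2755 and 3203 CP20M, below all Ve sums, and line M11 is low in A1 at 4528 CP20M.

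The largest fall was that of Mki67, at 282, 308 and 344 CP20M in R10 and 2310, 1681, 1328 and 1435 CP20M in Ve, 5.05-fold (log2 difference -2.34, SE 0.46, adjusted p = 0.00327). Cenpf, which binds kinetochores and the nuclear matrix in G2 and M, was at 75, 87 and 96 CP20M in R10 and 560, 478, 367 and 404 CP20M in Ve, a fall of 4.42-fold (-2.14, SE 0.40, adjusted p = 0.00210). Ccnb1, which activates Cdk1 at mitotic entry, was at 52, 70 and 77 CP20M in R10 and 526, 319, 344 and 261 CP20M in Ve, a fall of 4.33-fold (-2.11, SE 0.35, adjusted p = 9.55e-04). For these 3 genes the R10 libraries lay close together and far below Ve. The other mitosis genes followed in full fell in R10 also. The fall was 4.08-fold for Top2a, the topoisomerase that untangles sister chromatids (-2.03, SE 0.40, adjusted p = 0.00293), 4.06-fold for Plk1 (-2.02, SE 0.35, adjusted p = 0.00138), 2.95-fold for the spindle kinase Aurka (-1.56, SE 0.26, adjusted p = 9.55e-04), 2.90-fold for the G2 transcription factor Foxm1 (-1.53, SE 0.31, adjusted p = 0.00402) and 2.69-fold for Cdk1 (-1.43, SE 0.31, adjusted p = 0.00537). Cdk1 lost its call without M3 (adjusted p = 0.0524), M3(2) (0.0669) or M1(2) (0.0659). Birc5, a chromosomal passenger protein also called survivin, was below the filter, at 21, 42 and 49 CP20M in R10 and 247, 177, 114 and 136 CP20M in Ve. The other called mitosis genes had log2 differences from -2.01 (Cenpe) to -1.04 (Ccna2, cyclin A2). Among them the checkpoint kinase gene Bub1 was at -1.84 (adjusted p = 0.00487) and Bub1b at -1.46 (adjusted p = 0.00403).

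Among replication genes the helicase subunits Mcm5, Mcm6 and Mcm3 fell most. Mcm5 was at 125, 124 and 94 CP20M in R10 and 517, 473, 369 and 401 CP20M in Ve, a fall of 3.42-fold (-1.77, SE 0.33, adjusted p = 0.00208). Mcm6 was at 239, 178 and 245 CP20M in R10 and 938, 843, 700 and 688 CP20M in Ve, a fall of 3.38-fold (-1.76, SE 0.25, adjusted p = 2.68e-04). Mcm3 fell 2.34-fold (-1.22, SE 0.34, adjusted p = 0.0232). All 6 Mcm genes were called, and Mcm2 had the smallest fall of the 11 called replication genes, 1.56-fold (-0.64, SE 0.19, adjusted p = 0.0309), at 510, 473 and 516 CP20M in R10 and 816, 808, 790 and 751 CP20M in Ve. Mcm2 lost its call without the filter (adjusted p = 0.0572) and without M3, M3(2) or M1(2), Ccne1 lost its call without M3 or M3(2), and Pcna, described next, without M3(2) (adjusted p = 0.0767). Pcna fell 1.67-fold (-0.74, SE 0.15, adjusted p = 0.00294), Ccne1 1.70-fold (-0.77, SE 0.19, adjusted p = 0.0133) and cyclin E2 (Ccne2) 1.89-fold (-0.92, SE 0.18, adjusted p = 0.00254). Cdc6 was below the filter, at 25, 28 and 21 CP20M in R10 and 139, 102, 103 and 83 CP20M in Ve.

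A pair of replication genes did not follow the rest. E2f1 was at 1260, 1403 and 1480 CP20M in R10 and 1103, 1170, 1146 and 1079 CP20M in Ve, so every R10 library was above every Ve library, with a log2 difference of 0.29 (SE 0.10, adjusted p = 0.0600) under the 1.5-fold needed for a call. Its adjusted p was 0.00475 with the line as a block, with a log2 difference of 0.30. Gins2, a subunit of the replicative helicase complex, was at 630, 632 and 620 CP20M in R10 and 589, 596, 522 and 627 CP20M in Ve (0.10, SE 0.11, adjusted p = 0.597). Gins2 lies opposite Gse1 and Gm20388 on the genome, and if strand was not used in counting their reads cannot be told apart from its own. Per kilobase E2f1 was the second most abundant of the 41 in Ve, at 357 ± 13.0 CP20M per kb (SD, n = 4) after Pcna at 480 ± 60.8, and the most abundant in R10, at 438 ± 35.4 (n = 3) against 282 ± 15.3 for Pcna.

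**Figure D5:**
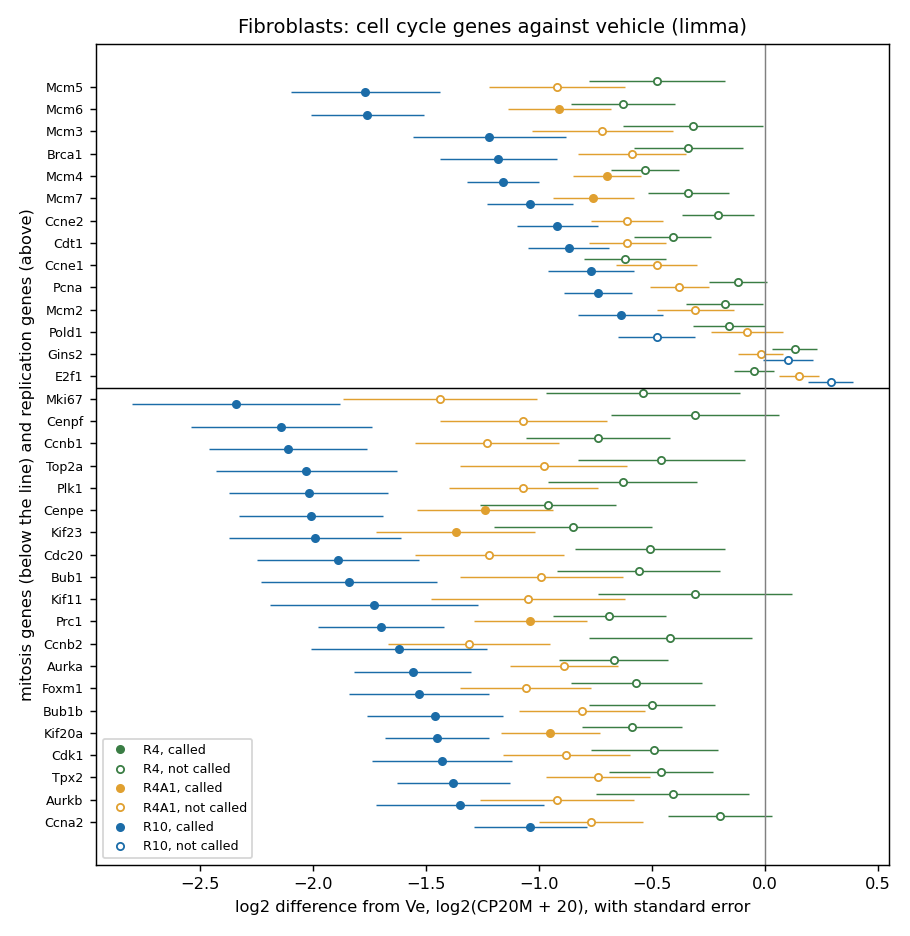
Log2 difference from Ve on the log2(CP20M + 20) scale (x axis) of the 34 members tested in fibroblasts (y axis), with bars of 1 standard error, for R4, R4A1 and R10 by limma; filled points were called. All mitosis genes in R10 are filled, with Mki67 lowest at -2.34, and E2f1 in R10 lies above 0 at 0.29.

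R4 called none of the 34 tested members, beside 1.02% of all genes in either direction. By edgeR 0 were called. The median was -0.33 over replication genes and -0.53 over mitosis genes, beside -0.00 over all genes. The lines differed, with a median over the mitosis genes of -1.63 in M3 and -0.63 in M1(2) and of 0.05 in M3(2) and 0.06 in M11. Mki67 in Ve and R4 was at 2310 and 535 CP20M in M3 and at 1328 and 790 CP20M in M1(2). It was at 1681 and 2164 CP20M in M3(2) and at 1435 and 1734 CP20M in M11. With the line as a block 6 members were called, all lower, Cenpe (-0.96, SE 0.28, adjusted p = 0.0220), Kif23, Aurka, Mcm6, Ccne1 (-0.62, SE 0.12, adjusted p = 0.00172) and Kif20a, beside 2.65% of all genes called lower. Without line M11, and with no block, 4 were called (Kif20a, Mcm4, Mcm6 and Cenpe), and the share of all genes called in that fit is not given. Endothelial markers stood apart in R4, with a summed level of 4 genes of 20692 CP20M in M3(2), 6439 in M11, 5021 in M1(2) and 1345 in M3, against 877 to 7281 CP20M in Ve. The 5 smooth muscle and glia markers summed to 20555 to 30508 CP20M in R4 and 11827 to 17217 in Ve, without overlap. The part of these markers in the R4 values was not tested.

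Ccne1 was lower in R4 than in Ve in all 4 lines, with 262, 295, 301 and 229 CP20M in R4 and 416, 454, 457 and 386 CP20M in Ve (M3, M3(2), M1(2) and M11), and its groups did not overlap. Its adjusted p without the block was 0.0949, the lowest of the members (log2 difference -0.62, SE 0.18). R10 against R4 gave no called member, beside 0.145% of all genes in either direction, and the lowest adjusted p was 0.0708 (Cenpf, -1.83, SE 0.40). By edgeR 0 were called. With the line as a block 28 were called lower, beside 5.02% of all genes, among them Cenpf (-1.92, SE 0.34, adjusted p = 0.00181) and Mki67 (-1.90, SE 0.41, adjusted p = 0.00591).

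A1 alone called no member or other gene (0% of 11032), and edgeR called 0. The medians were -0.25 and -0.35 for replication and mitosis genes, beside -0.02 over all genes. Line M11 stood apart, with 23 of 23 mitosis genes below its own Ve and a median of -0.96, against -0.34, -0.11 and -0.10 in M3, M3(2) and M1(2). Mki67 was at 506 CP20M in A1 and 1435 in Ve in M11, and at 1209 to 1647 CP20M in A1 in the other lines.

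The combination R4A1 lowered 7 of the 34 members, 3 replication and 4 mitosis genes, beside 0.925% of all genes called lower. These were Kif23 (2.58-fold, -1.37, SE 0.35, adjusted p = 0.0452), the kinetochore motor Cenpe (2.36-fold, -1.24, SE 0.30, adjusted p = 0.0348), the midzone organizer Prc1 (2.06-fold, -1.04, SE 0.25, adjusted p = 0.0365), Kif20a (1.94-fold, -0.95, SE 0.22, adjusted p = 0.0278), Mcm6 (1.88-fold, -0.91, SE 0.23, adjusted p = 0.0422), Mcm7 (1.69-fold, -0.76, SE 0.18, adjusted p = 0.0296) and Mcm4 (1.62-fold, -0.70, SE 0.15, adjusted p = 0.0213). Kif23 was at 90, 159, 75 and 57 CP20M in R4A1 and 352, 261, 241 and 215 CP20M in Ve, without overlap. With the line as a block 27 were called lower, all 20 mitosis genes and 7 replication genes, beside 4.33% of all genes. The count was 0 without M3, M3(2) or M1(2), 11 without M11, and 2 with no filter on low values. For these fits the share of all genes called is not given. The median over the mitosis genes was -1.66, -0.55, -0.75 and -1.12 in M3, M3(2), M1(2) and M11, with 23 of 23 lower than Ve in each line. The 7 immune markers summed to 449 to 706 CP20M in R4A1 and 1050 to 5315 in Ve, without overlap, and the smooth muscle and glia markers to 15837 to 25010 and 11827 to 17217. Their part in the result was not tested.

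Against R4 alone the combination called no member by limma or edgeR, beside 0.00906% of all genes by limma. The median was -0.22 for replication and -0.49 for mitosis genes, beside -0.03 over all genes. In line M11 Mki67 was at 1734 CP20M in R4 and 391 in R4A1, in M3(2) at 2164 and 1135, in M1(2) at 790 and 650 and in M3 at 535 and 437. It was lower in R4A1 in all 4 lines, and the groups overlapped (log2 difference -0.89, SE 0.43, adjusted p = 0.870).

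In R10 the other replication and other mitosis lists held many called genes, all lower, and the 2 lists of G1 and CDK regulators held 1 call each, beside 4.09% of all genes called lower. Of 18 tested other replication genes 10 fell, led by Uhrf1, which carries DNA methylation through replication (3.76-fold, -1.91, SE 0.28, adjusted p = 4.21e-04), and Pole, the leading strand polymerase (3.34-fold, -1.74, SE 0.32, adjusted p = 0.00208). Of 20 tested other mitosis genes 14 fell, led by the centromeric histone Cenpa (3.83-fold, -1.94, SE 0.39, adjusted p = 0.00346) and Hmmr, a spindle protein (3.34-fold, -1.74, SE 0.40, adjusted p = 0.00827). The 10 G1 cyclins, kinases and regulators had 1 call, Myc, which fell 1.78-fold (-0.83, SE 0.15, adjusted p = 0.00186), and the 8 tested CDK inhibitors and pocket proteins had 1, Cdkn2b, which rose 1.81-fold (0.86, SE 0.17, adjusted p = 0.00293). In R4 Cdkn2b rose 1.56-fold (0.64, SE 0.15, adjusted p = 0.0448) and no other gene of these lists was called. In R4A1 Tk1, thymidine kinase, fell 2.24-fold (-1.16, SE 0.27, adjusted p = 0.0283), Uhrf1 2.18-fold (-1.12, SE 0.26, adjusted p = 0.0291) and the spindle protein gene Tacc3 1.79-fold (-0.84, SE 0.22, adjusted p = 0.0480). A1 called none of them.

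Markers of other cells differed in the same R10 libraries. The summed level of 7 immune markers was 587 to 611 CP20M in R10 and 1050 to 5315 in Ve, with Lyz2 at 186 to 4214 and Cd3e at 0 in all fibroblast libraries. That of 5 smooth muscle and glia markers was 22753 to 28223 CP20M in R10 and 11827 to 17217 in Ve, and that of the 8 fibroblast markers 129367 to 136896 in R10 and 128577 to 185853 in Ve. The part of these in the fall of the cell cycle genes was not tested.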

How the data were processed

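Bulk RNA was sequenced from 24 organoid and 19 fibroblast libraries. Per the submitters' processing notes reads were trimmed with Trimmomatic 0.36, aligned to GRCm38 with STAR 2.5.3a and counted per gene with HTSeq 0.9.1, and the annotation was Ensembl 90. The deposited values are a signal that the authors made by scaling each library's counts to a total of 20000000 (CP20M) and rounding up. Whether counting used strand is not given in the sources used here, so overlapping genes on opposite strands may share reads. The labels and the study's methods name different library kits. Whole reads were recovered from the steps between values, with 99.61 to 100.00% of values whole.

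Groups came from the labels. log2(CP20M + 20) of genes with at least 200 CP20M in at least 2 libraries was fitted with limma 3.58.1 (trend) in R 4.3.3, with 1 coefficient per group and a fit for each culture type, and Benjamini-Hochberg adjustment over all genes tested. A gene was called at an adjusted p under 0.05 and at least 1.5-fold, and fold changes are on the log2(CP20M + 20) scale, which understates changes of low genes. Lines came from individual mice. The p-values without the block treat libraries of the same line as independent. The contrast of regorafenib over both doses uses an R4 and an R8 library of each organoid line. Alternatives were another pseudocount, no filter, TMM factors, the line as a block, edgeR 4.0.16 on the recovered reads, only the groups compared, stricter thresholds, and each line or the shallowest library left out. The fits were tested on simulated data. edgeR called 2188 genes for regorafenib in organoids and 855 for R10 in fibroblasts. Deviations from group means correlated within lines, at a mean of 0.5 over 36 organoid pairs (34 above 0.1) and 0.72 over 36 fibroblast pairs (36 above 0.1), and each line is 1 mouse, so libraries of a line are paired. No 2 libraries of the same group agreed within sampling noise (51 pairs), and libraries of different groups were not compared in this way.

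All 41 genes were counted, and full statistics were given by rule for 16 of them (Mcm2, Mcm5, Mcm6, Pcna, Ccne1, Ccne2, Cdc6, E2f1, Mki67, Top2a, Cdk1, Ccnb1, Plk1, Aurka, Foxm1 and Birc5) and for the 3 called members with the largest rise and fall. Of other lists the counts and the 2 called genes with the largest change are given. Other genes are named as examples chosen after their values were seen. The members and lists were chosen with earlier results of these data known. Promoters came from RefSeq (GRCm38.p6).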

Additional observations from a re-analysis of the deposited data

Results flagged for a closer look

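Of 72 values tested in the fibroblast groups of 4 libraries, 3 lay far from the others of their group, where chance gives about 1 in 20, and all 3 were in the A1 library of line M11. Mcm5 was at 174 CP20M there with 410 in the nearest library, Mcm6 at 333 with 651, and Ccne1 at 242 with 402. The 3 organoid libraries of a group and the 3 R10 libraries were too few for this comparison. No member was called for a difference between genotypes in its response.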

How the results depend on the processing

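The counts of called members were recomputed with 1 choice changed at a time, or 2 where both are named, and no called gene changed sign. Where no share of all genes called is given for a setting, its count cannot be set against that share. The median of the 41 genes in tumoroids did change sign, at 0.32 in limma and -0.62 by edgeR. For regorafenib in organoids the count of 1 became 2 with TMM factors, with the line as a block, by edgeR or without the M41 R4 library, 3 without that library and with the block, 0 at an adjusted p of 0.001, and 0 to 1 with a line left out. In colonoids the count of 1 became 3 with the block, 2 with the block and without the M41 R4 library, 0 with only the groups compared, 0 at 0.001, and 0 to 4 with a line left out. With only the colonoid groups compared E2f2 did not pass the filter. In tumoroids the count of 0 became 1 with the block, 1 with the block and without the M41 R4 library, and 0 to 3 with a line left out. In fibroblasts the R4 count of 0 became 6 with the block and 0 to 4 with a line left out, and the R10 count of 31 became 14 to 30 with a line left out. The R4A1 count of 7 became 27 with the block, 2 with no filter, 4 with only the groups compared, and 0 to 11 with a line left out. The count for R10 against R4 of 0 became 28 with the block and 0 to 1 with a line left out. The cause of these shifts was not tested. The block changed no other count. No paired fit was made of tumoroids against colonoids because no line has both genotypes.

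Values of the 16 genes followed in full were recomputed for regorafenib over all organoids, 5-FU in each genotype, tumoroids against colonoids and R10, with E2f2 (also in colonoids) and Cenpf (in R10), 917 in all. Of these 894 kept their direction and their side of the threshold, 3 gained a call (all E2f1 in organoids) and 20 lost one (14 in R10 and 6 of E2f2). Calls that single genes gained elsewhere, such as Mcm5 in colonoids or Ccne1 in R4 with the block, are not among these. E2f2 could not be fitted in organoids without F11, where it did not pass the filter. The M41 R4 library, at 512597 reads, limits what can be said of low genes in that line.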
